A study of Mus musculus with 94 samples.

Results

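Heat shock proteins and chaperones help other proteins to fold, and the 79 genes described here were the rows of the deposited count tables whose symbols name the HSP70, HSP110, HSP90 and small heat shock proteins, the J-domain proteins and the subunits of the cytosolic and mitochondrial chaperonins. They were found by symbol alone, among 24767 genes listed in at least 1 of 4 tables, and 69 of the 79 were listed in all 4. There were 11 HSP70 genes, 3 HSP110 genes, 3 HSP90 genes, 8 small heat shock protein genes, 45 J-domain genes (4 of class A, 13 of class B and 28 of class C), 7 genes of the cytosolic chaperonin and 2 of the mitochondrial chaperonin. *Cct6a*, a further subunit of the cytosolic ring, did not match the symbol rule and is not described.

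The study, titled for the balance between evicting and retaining cohesin, depleted a subunit or the release factor of this ring complex, which folds chromosomes into loops. RAD21 is a core subunit of cohesin, and WAPL takes cohesin off chromatin. Both were fused to an FKBP degron, a tag through which the small molecule dTAG-13 sends a protein to the proteasome, in hybrid CAST/Ei x 129/Sv/Jae mouse embryonic stem cells of the line Tsix-stop. Every group, controls included, carried its degron fusion, and every comparison set 500 nM dTAG-13 against DMSO in the same clones. Stem cells were held on irradiated feeder fibroblasts and then differentiated without LIF as embryoid bodies, first in suspension and from day 4 on gelatin.

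WAPL was depleted for 3 days, either from day 4 to day 7 (clone H7 in 2 replicates and clone H2 in 1 replicate per treatment) or from day 7 to day 10 (clone H7, 2 replicates per treatment). RAD21 was depleted for 8 hours before harvest, with poly(A) RNA measured at day 10 and nascent RNA at day 7, each in 1 library per treatment from clone C4 and 1 from clone G9. Each degron line is thus represented by 2 clones, or by 1 in the later WAPL window. PRO-seq (precision run-on sequencing) counts RNA that engaged polymerases are extending, so it reads transcription, while poly(A) RNA-seq reads the steady level. The labels do not say that replicates of clone H7 came from separate cultures, so p-values measure the spread between these libraries, which may be technical. Library totals ran from 8413212 to 35388461 counts over the 18 libraries. The targeted gene does not check the labels here because degradation acts on the protein: *Wapl* RNA stood at 759, 842 and 244 CPM (counts per normalised library size) with DMSO and at 757, 921 and 229 CPM with dTAG-13 for days 4 to 7, the last value of each in clone H2. *Rad21* RNA stood at 251 and 201 CPM with DMSO and at 284 and 216 CPM with dTAG-13 in clones C4 and G9. All 8 pluripotency markers examined (*Pou5f1*, *Sox2*, *Nanog* and others) were detected in every table, at a summed 1381 to 2860 CPM in the RNA libraries, beside markers of differentiated cells whose sums are given with the results they moved with.

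As background, HSP70 proteins bind exposed hydrophobic stretches in an ATP-driven cycle, J-domain proteins bring them clients and trigger ATP hydrolysis, and HSP110 proteins exchange the nucleotide. HSP90 finishes the folding of kinases and receptors, small heat shock proteins hold unfolded clients without ATP and are abundant in muscle, and chaperonins enclose clients such as actin and tubulin in a ring. Heat shock factor HSF1 induces many of these genes through arrays of inverted GAA and TTC blocks, and the unfolded protein response induces those of the endoplasmic reticulum (ER) through an ER stress element.

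RefSeq promoter windows (build GRCm38.p6, 250 bases before to 50 after a start) matched 64 of the 79 genes by symbol. The motif of 3 alternating blocks (GAANNTTCNNGAA or TTCNNGAANNTTC, which between them are the same on both strands) lay in 6 of 83 member windows (7.23%), those of *Hspd1*, *Hspe1*, *Hsph1* and *Dnajb6*, and in 0.603% of all 32851 windows. The 2-block motif GAANNTTC, its own reverse complement and contained in the longer one, lay in 20.5% of member windows and 7.86% of all windows. The ER stress element (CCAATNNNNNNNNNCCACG on either strand) lay in the windows of 3 members and in 0.119% of all windows. A match is a run of letters and not a shown binding site.

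The 150 bases upstream of the start are shown for 4 of the genes that rose as described below, with 2-block motifs in capitals. *Hspb1* held 2 of them, each *Hspa1* gene held 1 at the same place, and *Hspb8* held none in this stretch but 1 just past the start, from base 2 to base 9 after it. *Hspa1a* and *Hspa1b* were identical at 149 of the 150 bases (99.3%), which shows how alike this pair is.
Hspb8, chr5:116422865-116423014, minus strand: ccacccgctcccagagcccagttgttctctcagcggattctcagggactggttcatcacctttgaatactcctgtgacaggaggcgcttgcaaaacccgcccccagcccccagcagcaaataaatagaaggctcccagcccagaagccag
Hspb1, chr5:135887769-135887918, plus strand: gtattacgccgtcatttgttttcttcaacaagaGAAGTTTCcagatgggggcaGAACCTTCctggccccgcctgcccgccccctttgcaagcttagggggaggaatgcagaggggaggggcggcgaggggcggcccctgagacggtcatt
Hspa1a, chr17:34972157-34972306, minus strand: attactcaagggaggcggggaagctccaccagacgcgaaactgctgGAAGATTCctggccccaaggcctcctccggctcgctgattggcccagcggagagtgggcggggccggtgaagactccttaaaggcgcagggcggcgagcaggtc
Hspa1b, chr17:34959239-34959388, minus strand: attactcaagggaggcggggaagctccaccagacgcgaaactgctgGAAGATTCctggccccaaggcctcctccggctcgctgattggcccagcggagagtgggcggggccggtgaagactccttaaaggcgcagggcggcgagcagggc

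Shorter stretches are shown for genes that carry a full element. *Hspe1* has overlapping heat shock elements (capitals) in the stretch it shares with its head-to-head neighbour *Hspd1*, and *Hspa5*, *Hsp90b1* and *Dnajc3* have the outer blocks of the ER stress element (capitals), with *Hsp90b1* holding a match on either strand.
Hspe1, chr1:55088053-55088082, plus strand: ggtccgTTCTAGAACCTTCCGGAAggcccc
Hspa5, chr2:34772020-34772048, plus strand: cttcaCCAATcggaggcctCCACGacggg
Hsp90b1 (farther), chr10:86705633-86705661, minus strand: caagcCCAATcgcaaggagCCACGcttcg
Hsp90b1 (nearer), chr10:86705528-86705556, minus strand: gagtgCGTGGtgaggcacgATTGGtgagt
Dnajc3, chr14:118937822-118937850, plus strand: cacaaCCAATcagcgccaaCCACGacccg

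With WAPL depleted from day 4 to day 7, the small heat shock protein genes *Hspb8*, *Hspb2* and *Hspb1* and the HSP70 genes *Hspa2*, *Hspa1a* and *Hspa1b* rose, while *Hspb6*, *Hsph1* and 3 class C J-domain genes fell. HSP90 and both chaperonins gave no call. Of 72 members tested, 6 rose and 5 fell (15.3%) at an adjusted p under 0.05 by edgeR's quasi-likelihood test. Over all 14544 genes tested 15.2% were called, 9.46% higher and 5.73% lower, so the members were called about as often as genes at large. Their median log2 fold change was -0.08, beside -0.01 over all genes. The groups differed in their counts: 3 of 5 tested small heat shock protein genes rose and 1 fell, 3 of 11 HSP70 genes rose, 1 of 3 HSP110 genes fell, 3 of 41 J-domain genes fell, and none of 3 HSP90 and 9 chaperonin genes passed.

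*Hspb8*, a small heat shock protein that works with BAG3 in chaperone-assisted autophagy, gave the smallest p of all members. In clone H7 it stood at 33.1 and 31.8 CPM with DMSO and at 81.6 and 70.8 CPM with dTAG-13, and in clone H2 it went from 33.9 to 81.3 CPM. The 3 treated libraries lay close together, all above the 3 controls. The log2 fold change was 1.24 (SE 0.10, n = 3 per group, adjusted p = 0.00115, edgeR), and it passed under each of 10 other settings and with any 1 of the 6 libraries left out, at log2 fold changes from 1.18 to 1.31. No other member kept its call in all of these.

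*Hspb2*, a muscle small heat shock protein, was a low gene that rose from 3.65 ± 1.38 CPM (SD, n = 3) to 8.66 ± 1.99 CPM (log2 fold change 1.24, SE 0.20, adjusted p = 0.00758, edgeR). Its DMSO library of clone H2 held 17 counts. Its head-to-head neighbour *Cryab*, the αB-crystallin gene and a small heat shock protein outside the symbol rule, rose more: clone H7 went from 19.6 and 26.1 CPM to 84.9 and 86.0 CPM, and clone H2 from 8.84 to 68.3 CPM (log2 fold change 2.19, SE 0.21, adjusted p = 0.00187, edgeR). Without stated strand handling, reads of these neighbours were taken as the files give them.

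*Hspb1* (HSP27), which guards actin filaments under stress, stood at 66.9 ± 9.17 CPM with DMSO and at 107 ± 17.6 CPM with dTAG-13 (n = 3). The 3 controls (56.4 to 73.5 CPM) lay below the 3 treated libraries (89.2 to 124 CPM). Its log2 fold change was 0.68 (SE 0.14, adjusted p = 0.0186, edgeR). *Hspb6* (HSP20), a small heat shock protein of smooth and cardiac muscle, went the other way, from 14 ± 2.81 CPM to 8.17 ± 0.246 CPM (n = 3), and fell by 0.75 on the log2 scale (SE 0.17, adjusted p = 0.0239, edgeR). *Hspb11*, a part of the intraflagellar transport machinery, stood at 8.95 ± 1.35 CPM and 11 ± 1.61 CPM (n = 3) and did not pass (adjusted p = 0.264, edgeR). The other 3 genes of the group, *Hspb3*, *Hspb7* and *Hspb9*, held at most 5 counts in a library and were not tested.

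**Figure D1:**
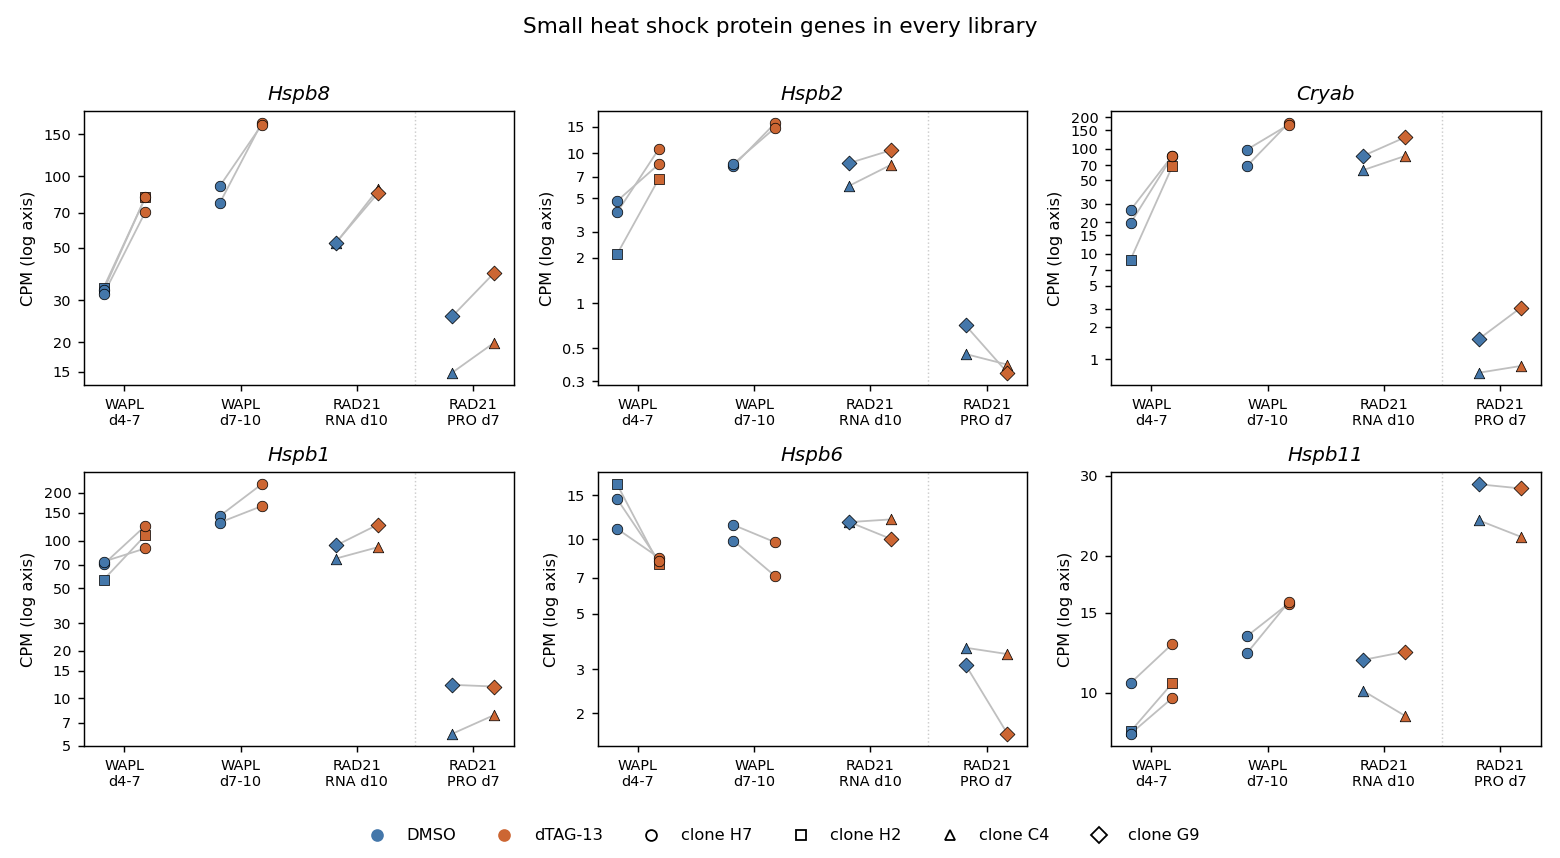
Normalised counts (CPM, log axis) of 5 small heat shock protein members and of Cryab in all 18 libraries, DMSO in blue and dTAG-13 in orange. Marker shapes give the clone and grey lines join the DMSO and dTAG-13 libraries of one clone and replicate. Hspb8 had a higher mean with dTAG-13 in each of the 4 comparisons, while Hspb6 was lower in the WAPL libraries.

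Among the HSP70 genes, *Hspa1b* and *Hspa1a*, the stress-inducible cytosolic forms, stood at 8.22 ± 1.42 and 3.89 ± 1.17 CPM with DMSO and at 13.5 ± 1.10 and 5.94 ± 1.35 CPM with dTAG-13 (n = 3). Because the 2 genes are nearly identical, the split of reads between them is uncertain, so their sum is given too. The sum lay between 10.6 and 13 CPM with DMSO and between 17.8 and 21.9 CPM with dTAG-13, with no overlap between the groups, although *Hspa1a* on its own overlapped. The log2 fold changes were 0.71 (SE 0.17) for *Hspa1b* and 0.62 (SE 0.17) for *Hspa1a*, with adjusted p of 0.0283 and 0.0459 by edgeR. *Hspa2*, an HSP70 best known from spermatogenesis, rose from 13.3 ± 1.59 to 20.7 ± 1.51 CPM (log2 fold change 0.66, SE 0.13, adjusted p = 0.0150, edgeR).

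The abundant housekeeping HSP70 genes did not pass. *Hspa8* (HSC70, the constitutive cytosolic form) spread more between clones than between treatments, from 202 CPM in clone H7 to 521 CPM in clone H2 with DMSO and from 185 to 457 CPM with dTAG-13. The ER form *Hspa5* (BiP) lay between 637 and 698 CPM with DMSO and between 618 and 749 CPM with dTAG-13, and its partner HSP90, *Hsp90b1* (GRP94), between 764 and 894 and between 702 and 827 CPM. The mitochondrial form *Hspa9* (mortalin) stood at 735 to 739 CPM with DMSO and at 588 to 687 CPM with dTAG-13, with no overlap, but without a call. *Hsph1* (HSP105), an HSP110 nucleotide exchange factor, fell from 150 ± 12.4 to 116 ± 13.2 CPM (n = 3, log2 fold change -0.37, SE 0.10, adjusted p = 0.0413, edgeR).

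The 3 J-domain genes that fell were *Dnajc21*, a ribosome biogenesis factor, *Dnajc6* (auxilin), which uncoats clathrin vesicles in neurons, and *Dnajc27*, which carries a small GTPase domain. *Dnajc21* went from 104 ± 2.94 to 78.5 ± 10.0 CPM (n = 3, log2 fold change -0.41, SE 0.10, adjusted p = 0.0260, edgeR). *Dnajc6* went from 28.4 and 26.0 CPM to 16.2 and 18.1 CPM in clone H7 and from 24.7 to 20.6 CPM in clone H2 (log2 fold change -0.54, SE 0.14, adjusted p = 0.0328, edgeR). *Dnajc27* fell by 0.40 on the log2 scale (SE 0.11, adjusted p = 0.0486, edgeR). Just past the threshold, *Dnajb5* stood at 51.3 ± 2.04 CPM with DMSO and 64.3 ± 2.80 CPM with dTAG-13 (n = 3, adjusted p = 0.0554, edgeR). *Dnajb1*, the main J-domain partner of inducible HSP70, stood at 105 ± 0.237 CPM with DMSO and 109 ± 7.02 CPM with dTAG-13 (n = 3).

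Whether the replicate numbers pair the clone H7 libraries could not be shown (the check is given with the processing). As an alternative, a replicate block called 15 members, 9 higher and 6 lower, where 27.5% of all genes were called. It added *Dnajb5* (adjusted p = 0.0195), *Hspa12a* (0.0251), *Dnajc17* (0.0294) and *Hspa13* (0.0457, all edgeR) to the 11 genes above. *Hspa12a* went from 5.31 and 8.76 to 7.65 and 11.8 CPM in clone H7 and from 8.84 to 12.7 CPM in clone H2.

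All 9 chaperonin genes had a negative log2 fold change, from -0.28 for *Cct4* to -0.15 (median -0.21), and none passed, 1 having an unadjusted p under 0.05, beside 31.8% of all genes. The treated libraries were not alike: *Cct5* stood at 652, 598 and 574 CPM with DMSO and at 472, 627 and 457 CPM with dTAG-13, the middle value of each being clone H7 replicate 1. Without the dTAG-13 library of clone H7 replicate 1, 8 of the 9 chaperonin genes were called lower (all but *Hspe1*), and 27 members were called in all, 9 higher and 18 lower, where 4432 genes of the whole table were called. *Hsp90ab1*, *Hspa4* and *Hspa9* were among the 18. Without DMSO replicate 1 or DMSO replicate 2 of clone H7, 3 members were called, and without either library of clone H2, 1 was. Without dTAG-13 replicate 2 of clone H7, 9 were called.

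**Figure D2:**
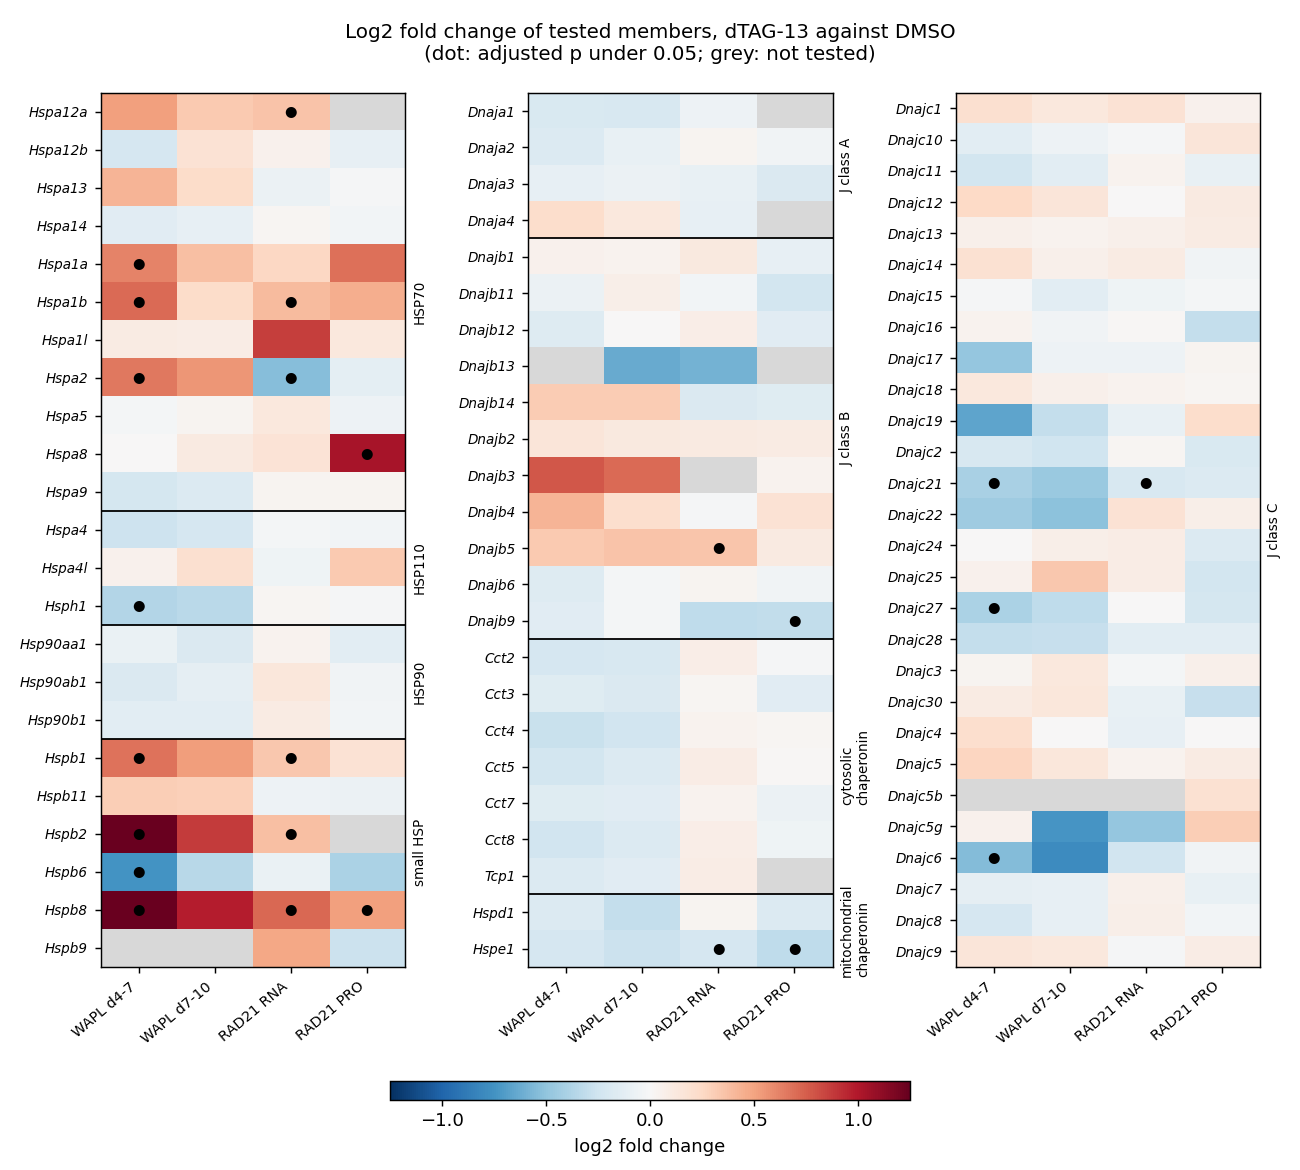
Log2 fold change (dTAG-13 against DMSO, colour scale) of every member tested in at least 1 of the 4 comparisons, grouped by family, with a dot where the adjusted p was under 0.05 by edgeR. HSP90 genes have no dot, Hspe1 is the only chaperonin gene with one, and the WAPL days 7 to 10 column has none.

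Markers of other cells moved with these genes. For days 4 to 7, the summed CPM of 11 muscle markers was 45.8 to 93.1 with DMSO and 139 to 186 with dTAG-13, and 5 of the 9 tested rose. That of 9 fibroblast and feeder markers was 99.2 to 207 and 445 to 608, with 5 of 8 tested higher and 1 lower. *Acta2* of that list stood at 121 and 133 CPM with DMSO and at 503 and 354 CPM with dTAG-13 in clone H7. In clone H2 *Acta2* went from 33.9 to 482 CPM, so this 1 gene carried much of the rise in the sum. *Thy1*, of the same list, went from 25.4 and 26 to 17.9 and 12.4 CPM in clone H7 and from 33.6 to 15.3 CPM in clone H2. Of the other lists, 5 neural markers summed to 327 to 394 CPM with DMSO and 207 to 259 CPM with dTAG-13, with 1 of 5 lower, and the 8 pluripotency markers to 2578 to 2860 and 1958 to 2557 CPM, with 1 of 8 lower. The 4 endoderm markers summed to 5.18 to 33 and 5.37 to 14.5 CPM, with 1 of 3 tested higher and 1 lower. The muscle marker *Nppa* and the fibroblast marker *Lum* were under 10 counts in every library. The part of these lists in the result was not tested. In bulk libraries, more cells of a type and more RNA per cell cannot be told apart.

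Related genes outside the rule gave a mixed count. Of 31 heat shock factors and cytosolic co-chaperones, 1 rose (*Cryab*) and 3 fell, among them *Ahsa1*, an activator of the HSP90 ATPase (log2 fold change -0.52, SE 0.12, adjusted p = 0.0253, edgeR). Of 18 ER folding genes, 1 fell: *Herpud1*, a target of the unfolded protein response (log2 fold change -0.79, SE 0.14, adjusted p = 0.0105, edgeR). None of 10 mitochondrial folding genes passed. Within the members, 4 of the 10 classical heat-inducible genes were called, 3 higher and 1 lower, and 0 of the 8 ER genes and 0 of the 8 mitochondrial genes, with 0 and 2 at an unadjusted p under 0.05, beside 31.8% of all genes.

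With WAPL depleted from day 7 to day 10, no gene of the table passed. The small heat shock protein genes *Hspb8* and *Hspb2* again had the smallest p among the members. *Hspb8* stood at 77 and 90.7 CPM with DMSO and at 167 and 164 CPM with dTAG-13, and *Hspb2* at 8.23 and 8.49 and at 15.9 and 14.8 CPM. Both treated libraries of each gene lay well above both controls, with log2 fold changes of 0.98 (SE 0.16) and 0.87 (SE 0.19) and an adjusted p of 0.663 for both by edgeR. *Hspb1* stood at 143 and 130 CPM and at 227 and 165 CPM. By edgeR 0 of 73 members were called (background 0% of 14110 genes), with 4 at an unadjusted p under 0.05 beside 6.56% of all genes. DESeq2 called 1, *Hspb8*, and limma-voom called 0. A fit with a replicate block called more and is given in the closing section.

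The members that fell in the early window also stood lower here. *Dnajc6* was at 26.2 and 29.5 CPM with DMSO and at 15.6 and 16.6 CPM with dTAG-13 (log2 fold change -0.79, SE 0.18, adjusted p = 0.670, edgeR). *Dnajc21* was at 93.9 and 80.7 and at 67.2 and 59.9 CPM, and *Hsph1* at 112 and 112 and at 89.5 and 86.8 CPM. None of these overlapped between treatments, but with 2 libraries per group and no share over all genes beside it, nothing is read from that. Summed muscle markers were 82.3 to 87.1 CPM with DMSO and 134 to 149 CPM with dTAG-13, and summed fibroblast markers 391 to 556 and 677 to 728 CPM. The fibroblast sum rose mainly through *Acta2*, at 248 and 354 CPM with DMSO and at 525 and 521 CPM with dTAG-13. Of the 8 tested fibroblast markers, 6 had a positive and 2 a negative log2 fold change, from -1.22 to 1.30. Neural markers summed to 287 to 307 CPM with DMSO and 216 CPM in both dTAG-13 libraries, endoderm markers to 55.9 to 61 and 36.3 to 38 CPM, and pluripotency markers to 1925 to 2543 and 1432 to 2052 CPM. None of these marker genes passed, and the part of the lists was not tested.

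The difference between the windows was tested directly in a joint fit of the 10 WAPL libraries. None of 73 members differed (background 0% of 14326 genes, edgeR), and 0 had an unadjusted p under 0.05, beside 2.95% of all genes. DESeq2 called 0 as well. For *Hspb8* the dTAG-13 effect was 0.25 lower on the log2 scale in the later window, at -0.25 (SE 0.16). That p misses the threshold and does not show that the effects are alike.

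Without any depletion, 3 of the genes that rose with dTAG-13 also differed between harvest days. In clone H7 with DMSO, *Hspb8* stood at 33.1 and 31.8 CPM at day 7 and at 77 and 90.7 CPM at day 10, *Hspb1* at 70.7 and 73.5 and at 143 and 130 CPM, and *Hspb2* at 4.03 and 4.80 and at 8.23 and 8.49 CPM. These levels were scaled within each table. In the joint fit, 3 members were higher at day 10 and 1 lower of 73 (5.48%), beside 6% of 14326 genes, 4.47% higher and 1.53% lower. The log2 differences were 1.33 (SE 0.12, adjusted p = 0.00169) for *Hspb8*, 0.93 (SE 0.19, 0.0273) for *Hspb1*, 0.95 (SE 0.19, 0.0281) for *Hspb2* and -0.53 (SE 0.11, 0.0303) for *Hsph1*, all by edgeR. At an unadjusted p under 0.05 there were 11 members, beside 21.6% of all genes. *Cryab* was higher by 1.96 (SE 0.25, adjusted p = 0.00556, edgeR).

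Only *Hspb8* kept its call in each fit without 1 of the 10 libraries, and it was the only 1 called in each fit that left out a DMSO library, of either window, or the dTAG-13 library of clone H2. The day 7 and day 10 libraries are in separate tables, so day and table cannot be told apart. Muscle, fibroblast and endoderm markers also differed between the days, with 3 of 8, 4 of 8 and 3 of 3 tested higher at day 10 and none lower. Of 3 tested germ cell markers 1 was lower and 0 higher, and no neural or pluripotency marker was called.

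With RAD21 depleted for 8 hours, RNA at day 10 again had *Hspb8* and *Hspb1* higher, together with *Hspb2*, *Hspa1b*, *Hspa12a* and the class B J-domain gene *Dnajb5*, and *Hspa2*, *Hspe1* and *Dnajc21* lower. Of 73 members tested 9 were called, 6 higher and 3 lower (12.3%), beside 18.7% of 14470 genes, 9.83% higher and 8.89% lower (edgeR). Of the 9, 8 were under 0.6 in size on the log2 scale. The median over the members was 0.03, beside 0.01 over all genes. By group, 3 of 6 tested small heat shock protein genes, 3 of 11 HSP70 genes, 2 of 41 J-domain genes and 1 of 9 chaperonin genes were called, and none of 3 HSP90 and 3 HSP110 genes.

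With 2 clones and 1 library per clone and treatment, the fit kept 1 residual degree of freedom and took its spread from all genes, so these p-values rest on the genes having a like spread. DESeq2 called 1 member, *Hspb8*. Without the clone term 0 were called, with 1 gene called in the whole table, and with 1 library left out, which also drops the clone term, 0 were called in each of the 4 cases. The values of both clones are therefore given for each call.

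*Hspb8* went from 52.3 to 87.9 CPM in clone C4 and from 52.5 to 84.6 CPM in clone G9, so the clones lay close together (log2 fold change 0.72, SE 0.06, adjusted p = 1.12e-31, edgeR). *Hspb1* went from 76.9 to 90.7 CPM and from 93 to 126 CPM, with the treatments overlapping across clones (log2 fold change 0.34, SE 0.06, adjusted p = 1.04e-07, edgeR). *Hspb2* went from 6.08 to 8.40 CPM in clone C4 and from 8.62 to 10.5 CPM in clone G9, and its call (adjusted p = 0.0431, edgeR) was lost under 6 of 8 other settings. *Cryab* rose from 62.5 to 85.2 CPM and from 85.3 to 128 CPM (log2 fold change 0.52, SE 0.06, adjusted p = 1.49e-17, edgeR). *Hspb6*, lower with WAPL depletion, stood at 11.7 and 11.7 CPM with DMSO and 12 and 10 CPM with dTAG-13. Of 31 heat shock factors and cytosolic co-chaperones, *Cryab* among them, 2 rose and 3 fell (16.1%, beside 18.7% of all genes). Of 18 ER folding genes 1 rose, and none of 10 mitochondrial folding genes passed.

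*Dnajb5*, a class B J-domain protein, rose from 53.7 to 66.9 CPM in clone C4 and from 58.4 to 76.2 CPM in clone G9 (log2 fold change 0.35, SE 0.06, adjusted p = 1.20e-07, edgeR). *Hspa1b* went from 8.89 to 11.3 CPM and from 10.5 to 14.3 CPM (log2 fold change 0.40, SE 0.12, adjusted p = 0.0104, edgeR). *Hspa1a* stood at 3.69 and 3.90 CPM with DMSO and at 4.16 and 5.01 CPM with dTAG-13, and the sum of the pair went from 12.6 to 15.5 and from 14.4 to 19.3 CPM. *Hspa12a*, a distant HSP70 relative, went from 8.39 to 11.1 and from 7.78 to 9.57 CPM, with its call (adjusted p = 0.0426, edgeR) lost under 6 of 8 other settings.

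*Hspa2* moved against its direction in the WAPL libraries, from 12.9 to 10.7 CPM in clone C4 and from 12 to 6.28 CPM in clone G9 (log2 fold change -0.53, SE 0.13, adjusted p = 4.10e-04, edgeR). The fall in clone G9 was the larger one. *Dnajc21* went from 67.9 to 62.6 and from 69.2 to 56.4 CPM (log2 fold change -0.20, SE 0.06, adjusted p = 0.00666, edgeR). *Hspe1* (HSP10, the lid of the mitochondrial chaperonin, with the elements printed above) was called lower at -0.21 (SE 0.06, adjusted p = 0.00461, edgeR), although it fell in only 1 clone: it went from 84.7 to 59.1 CPM in clone C4 and from 69.3 to 75.7 CPM in clone G9. The call was lost under 5 of 8 other settings.

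The abundant genes named next did not pass. *Hspa5* went from 544 to 561 CPM in clone C4 and from 595 to 695 CPM in clone G9. *Hsp90b1* (659 to 667 and 708 to 805 CPM) and *Hspa9* (643 to 648 and 632 to 651 CPM) were also higher in both clones. *Hspa8*, *Hsp90ab1*, *Hsp90aa1*, *Cct2* and *Tcp1* were each lower in clone C4 and higher in clone G9. *Hspa8* went from 259 to 237 CPM in clone C4 and from 229 to 317 CPM in clone G9 and did not pass (log2 fold change 0.17, adjusted p = 0.0552, edgeR). The newer quasi-likelihood method of edgeR, chosen after seeing the data, gave it an adjusted p of 0.0471, and the other settings gave 0.0738 to 1. *Hsp90ab1*, the constitutive cytosolic HSP90, went from 3426 to 3351 and from 3356 to 4164 CPM, and *Hsp90aa1*, the inducible one, from 384 to 358 and from 359 to 405 CPM. *Cct2* and *Tcp1*, subunits of the cytosolic ring, went from 614 to 597 and from 631 to 624 CPM in clone C4 and from 627 to 719 and from 654 to 755 CPM in clone G9. *Dnajc6* differed more between clones than between treatments, at 24.9 and 22.0 CPM in clone C4 and 9.98 and 7.78 CPM in clone G9. Summed muscle markers were 89.3 to 122 CPM with DMSO and 120 to 141 CPM with dTAG-13, with 4 of 9 tested higher, and summed fibroblast markers 615 to 621 and 760 to 776 CPM, with 1 of 8 higher and 3 lower. The fibroblast sum rose mainly through *Acta2*, from 367 to 501 CPM in clone C4 and from 361 to 519 CPM in clone G9. Of the 8 tested fibroblast markers, 4 had a positive and 4 a negative log2 fold change (median -0.07). Of the 8 pluripotency markers 6 were lower, with sums of 1503 to 1900 and 1381 to 1628 CPM, and of 3 tested endoderm markers 2 were lower, with sums of 150 to 262 and 138 to 207 CPM. Of 5 neural markers 1 was lower, with sums of 253 to 268 and 234 to 271 CPM. The part of these lists was not tested.

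**Figure D3:**
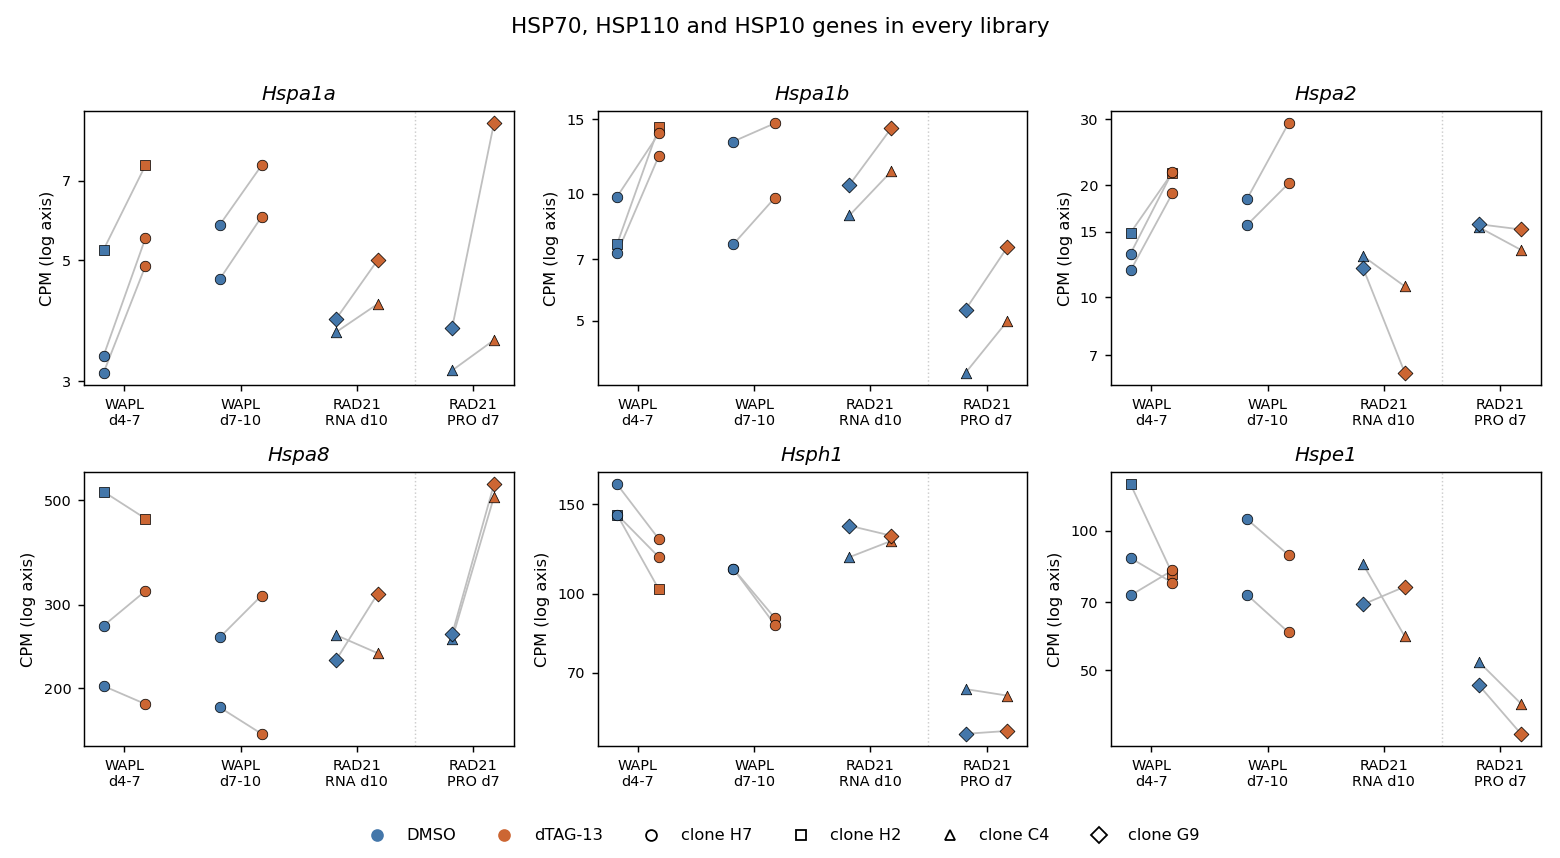
Normalised counts (CPM, log axis) of 4 HSP70 genes, Hsph1 and Hspe1 in all 18 libraries, with DMSO in blue, dTAG-13 in orange and clones by marker shape. In the RAD21 libraries Hspa8 goes from 254 and 260 to 508 and 540 CPM in PRO-seq, while its RNA goes down in clone C4 and up in clone G9. Hspa2 is higher with dTAG-13 in the WAPL RNA and lower in the RAD21 RNA libraries.

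Nascent RNA at day 7 gave another leading gene. *Hspa8* stood at 254 CPM in clone C4 and 260 CPM in clone G9 with DMSO and at 508 and 540 CPM with dTAG-13, a 2.04-fold higher level that was alike in both clones (log2 fold change 1.03, SE 0.06, adjusted p = 3.44e-13, edgeR). *Hspb8* went from 14.9 to 19.9 and from 25.7 to 39.1 CPM (log2 fold change 0.51, SE 0.13, adjusted p = 0.00666, edgeR), with the clones further apart than the treatments. Without the dTAG-13 library of clone G9, which drops the clone term, its log2 fold change was -0.02. *Hspe1* fell from 52.0 to 42.3 and from 46.3 to 36.4 CPM (log2 fold change -0.32, SE 0.10, adjusted p = 0.0344, edgeR). *Dnajb9* (ERdj4), an ER J-domain protein, fell from 59.7 to 54.4 and from 61.7 to 43.3 CPM (log2 fold change -0.31, SE 0.10, adjusted p = 0.0422, edgeR), with its call lost under 5 of 8 other settings. These were the only calls among 69 members tested, 2 in each direction (5.80%), beside 10.6% of 16496 genes, 5.90% higher and 4.66% lower. At an unadjusted p under 0.05 there were 12, beside 23.8% of all genes.

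*Hspa8* passed under 7 of 8 other settings, DESeq2 included, where it was the only member called. Without the clone term no gene of the table passed, and with 1 library left out 0 members were called in each of the 4 cases, although the log2 fold change of *Hspa8* stayed between 0.98 and 1.07. Of the 222 tested genes with an average level at or above its own, *Hspa8* itself was the only 1 with a log2 fold change that large.

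In the RefSeq gene order the span of *Hspa8* holds 3 small nucleolar RNA genes (*Snord14c*, *Snord14d* and *Snord14e*), and the PRO-seq table has no row for a *Snord* gene. This feature was looked at after the value was seen. Over the 282 tested genes whose span holds such an RNA, 32 were higher and 6 lower, so that 11.3% were higher beside 5.90% of all genes. The median log2 fold change of these 282 genes was 0.03, beside -0.00 over all genes. *Rpl7a* and *Snhg3*, further hosts picked after their values were seen, stood at log2 fold changes of 0.71 (SE 0.07) and 0.45 (SE 0.07). The non-coding RNA gene *Rmrp* stood at 2.55 (SE 0.10). How far reads from such RNAs enter the count of *Hspa8* was not tested. The other members with one in their span are *Hspa9* and *Tcp1*: *Hspa9* stood at 170 and 165 CPM with DMSO and 175 and 168 CPM with dTAG-13, and *Tcp1* has no row in that table.

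In nascent RNA none of the 3 HSP90 genes and 6 listed genes of the cytosolic chaperonin passed, at median log2 fold changes of -0.04 and -0.03, beside 0.00 over all genes. Both genes of the mitochondrial chaperonin had a negative value (median -0.25), and *Hspe1* was the 1 that passed. Of the 40 tested J-domain genes 1 fell, *Dnajb9*, and their median was -0.03. *Hspa1a* went from 3.14 to 3.57 CPM in clone C4 and from 3.76 to 8.93 CPM in clone G9, and *Hspa1b* from 3.77 to 5.00 and from 5.32 to 7.48 CPM. Neither passed (adjusted p = 0.0915 and 0.234, edgeR). *Hspb1* stood at 5.97 and 12.2 CPM with DMSO and 7.84 and 11.9 CPM with dTAG-13. *Hspb2* held 5 to 16 counts per library and was not tested. Of the classical heat-inducible genes, 1 of 9 was called higher and 1 lower. Of 29 co-chaperones listed 4 fell, led by *Fkbp4*, an HSP90-bound immunophilin (log2 fold change -0.35, SE 0.08, adjusted p = 0.00323, edgeR). Of 17 ER folding genes 2 rose and 1 fell (17.6%, beside 10.6% of all genes), and none of 10 mitochondrial folding genes passed. Of the 8 pluripotency markers 5 were lower in nascent RNA, with sums of 398 to 581 CPM with DMSO and 274 to 463 CPM with dTAG-13, and of 3 tested endoderm markers 2 were lower, with sums of 7.37 to 48.9 and 7.41 to 26.9 CPM. Summed muscle markers were 33.3 to 38.7 and 39.3 to 49.2 CPM, with 1 of 7 tested higher, and summed fibroblast markers 29.1 to 36.6 and 44.5 to 50.7 CPM, with 1 of 6 higher. Of the 7 muscle markers, 3 had a positive and 4 a negative log2 fold change (median -0.12), and of the 6 fibroblast markers 5 and 1. Much of the fibroblast sum was *Acta2*, which went from 18.4 to 30.4 CPM in clone C4 and from 28.5 to 39.2 CPM in clone G9. Of 5 neural markers 1 was higher and 1 lower. The part of these lists was not tested.

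Set side by side, 67 members were tested in both RAD21 readouts, which used different libraries, days and molecules. Of these, 31 had the same sign, and *Hspb8* and *Hspe1* were called in both, each in the same direction. The 4 genes called in nascent RNA had the same sign in RNA, as did the 7 that were called in RNA and tested in both. No share over all genes stands beside these counts, so nothing particular to the members is read from them. *Hspa8* was far apart in size between the readouts, 1.03 in nascent RNA and 0.17 in RNA. That gap was not tested because the readouts come from separate tables.

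**Figure D4:**
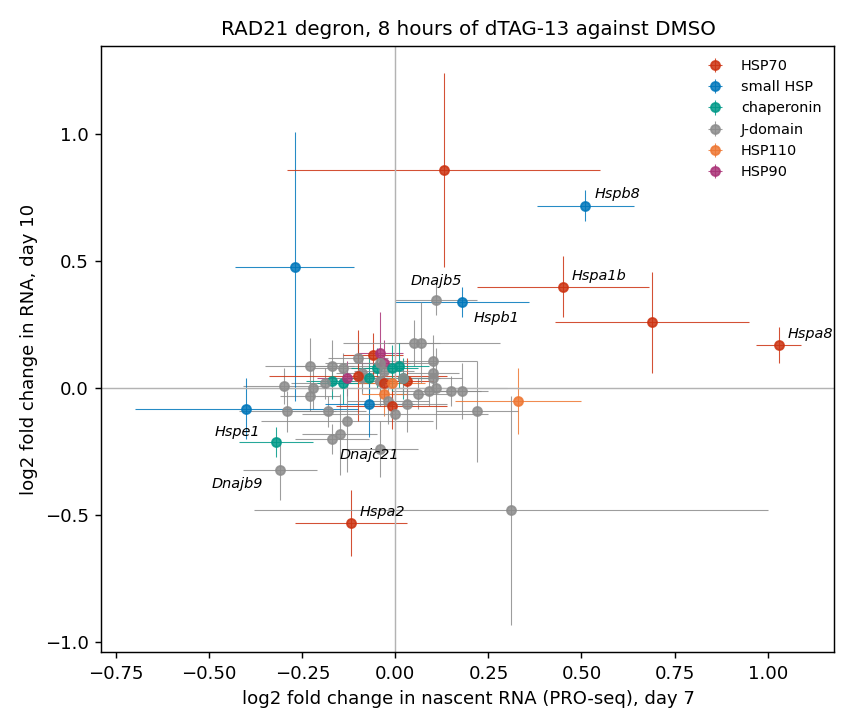
Log2 fold change of 67 members after 8 hours of RAD21 depletion, in PRO-seq at day 7 (horizontal) and in RNA at day 10 (vertical), with standard errors as bars and colours by family. Named genes were called in at least 1 readout. Hspb8 lies high on both axes, Hspa8 lies far to the right near 1.03 with an RNA value of 0.17, and most members cluster around 0.

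Over the WAPL days 4 to 7 and RAD21 RNA comparisons, which share no libraries, 71 members were tested in both. Of the 11 called with WAPL depletion 6 were also called with RAD21 depletion, and of the 9 called with RAD21 depletion 6 were called with WAPL depletion (54.5% and 66.7% of each list). Over the 13990 genes tested in both, 34.9% of the 2107 called with WAPL depletion and 28.1% of the 2620 called with RAD21 depletion were called in both. With lists of 11 and 9 members, nothing particular to them is read from the gap. *Hspb8*, *Hspb2*, *Hspb1* and *Hspa1b* were higher in both, *Dnajc21* was lower in both, and *Hspa2* was higher with WAPL and lower with RAD21 depletion. Whether any gene's effect differs between the degrons was not tested, since the durations, clones and tables differ.

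The 3 same-numbered pairs of WAPL days 4 to 7 and the 4 same-clone pairs of the RAD21 readouts make 7 pairs of a dTAG-13 and a DMSO library. Within clone H7 only the number joins the libraries. Of 66 members tested in every comparison, 6 were higher with dTAG-13 in all 7 (9.09%): *Hspb8*, *Hspa1a*, *Hspa1b*, *Dnajb5*, *Dnajc1* and *Dnajc5*. Only *Dnajc21* (1.52%) was lower in all 7. Over 12815 genes the shares were 7.76% higher and 8.29% lower, so the share of higher members was near that of genes at large. For days 7 to 10, whose libraries also share only a number, both dTAG-13 libraries lay above both controls for 4 of the 6. That is 6.06% of the 66 members, beside 3.33% of the 12815 genes that met both conditions. Both lay below the controls for *Dnajc21* (1.52%, beside 3.79% of genes). With so few members, nothing particular to them is read from these shares. In that window *Hspa1b* (7.59 and 13.3 CPM with DMSO, 9.80 and 14.7 CPM with dTAG-13) and *Dnajc5* overlapped. Of these, *Dnajc1* (an ER membrane J-domain protein) and *Dnajc5* (cysteine string protein, of synaptic vesicles) passed in none of the comparisons: *Dnajc5* stood at 150 ± 6.75 CPM with DMSO and 181 ± 15.1 CPM with dTAG-13 for WAPL days 4 to 7 (n = 3), at 182 and 207 and at 200 and 229 CPM for days 7 to 10, and at 218 and 216 and at 222 and 224 CPM in the RAD21 RNA.

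Several members were barely expressed in these cells. *Dnajb7*, *Dnajb8* and *Dnajc5b* had 0 counts in all 6 WAPL days 4 to 7 libraries, where 0 counts allow a level of up to 0.0834 to 0.374 CPM, and *Hspb3* had at most 1 count there. *Dnajc5b* had 34 to 43 counts per PRO-seq library. *Hspb9* had 7 to 11 counts per RAD21 RNA library but 168 to 467 per PRO-seq library. Such intervals cover counting error only. *Dnajb6* differed by clone rather than treatment in the WAPL table, at 16.8 and 18.9 CPM in clone H7 and 46.3 CPM in clone H2 with DMSO.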

How the data were processed

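Of the 94 samples of the series, 14 poly(A) RNA libraries and 4 PRO-seq libraries were used, grouped by their labels, and the other samples, of other assays, were not analysed here. The 3 RNA tables were used as deposited, as raw read counts. The deposited PRO-seq values are expected counts in steps of 0.5, and they were rounded to whole numbers. Per the submitters' processing notes HOMER, DESeq2, DESeq, TopHat2, Bowtie2 and Novoalign were used, beside the builds mm9, hg19 and dm6, with no role or version. How reads were assigned to genes, by strand or among near-identical copies, is not given in the sources used here. *Hspa8*, *Hspd1*, *Hspe1*, *Hsp90ab1* and the *Cct* genes have processed copies elsewhere in the genome, which that rule could affect.

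Each whole table was fitted in R 4.3.3 by edgeR 4.0.16: filterByExpr with a minimum count of 10, TMM scaling, quasi-likelihood F-test, Benjamini-Hochberg adjustment over all genes tested, called at an adjusted p under 0.05. Clone was a term except for WAPL days 7 to 10, which has 1 clone. CPM are counts over the library total times the TMM factor, and SE is the log2 fold change over the root of F. DESeq2 1.42.0 and limma-voom (limma 3.58.1) were alternatives, among others given in the closing section. The script was run on simulated data with no clone difference, no pairs and no spread particular to a gene beyond its level. That run therefore does not bear on how the calls depend on these. Between same-numbered DMSO and dTAG-13 libraries, deviations from group means correlated at 0.52, 0.54 and 0.63 for WAPL days 4 to 7. Replicate 3 is clone H2 in both groups and the clone difference was not removed. The check therefore cannot show that replicates 1 and 2 of clone H7 are pairs. The numbers served as a block in an alternative fit and to form the 7 pairs. No 2 libraries were alike within sampling noise.

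Named genes were drawn from the 12 members with the smallest p in a comparison (with at least 10 counts in 1 library). A fixed list of well-known members and up to 3 related genes stood beside them. Not all of these are given in each comparison. For nascent RNA, *Dnajc16*, *Dnajb11*, *Dnajc27*, *Dnajb4*, *Dnajc30* and *Dnajc2* are among those left out. *Hspb11*, *Hspb6* in RAD21 RNA, *Cct4*, *Cct5* and *Dnajb6* were added after their values were seen. Genes named for 1 direction in 7 pairs, barely expressed genes and hosts of small nucleolar RNAs were chosen after their values were seen. The members, lists and tests were chosen with earlier results of these data known. Promoters are RefSeq's, and no coordinates were converted between builds. *Cct4*, *Dnajc11*, *Dnajc12*, *Dnajc18*, *Dnajc2*, *Dnajc22*, *Dnajc30*, *Dnajc5*, *Dnajc5b*, *Hsp90aa1*, *Hsp90ab1*, *Hspa13*, *Hspa8*, *Hspa9* and *Hspb2* had no entry.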

Additional observations from a re-analysis of the deposited data

How the results depend on the processing

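The counts of members called stayed within 1.5 times of the reported ones under every alternative run except those given here. For WAPL days 4 to 7 (11 called), 1 was called with clone H7 alone and 3 without the clone term, 1 to 27 with 1 library left out, and the replicate block gave 15, with no call lost. For WAPL days 7 to 10 (0 called), DESeq2 called 1 and the replicate block called 18 members, 8 higher and 10 lower, led by *Hspb8*, *Dnajc6* and *Dnajc21*, where 36.4% of all 14110 genes were called. The same-numbered libraries of that window correlated at 0.79, but with 2 pairs they share only a number. For RAD21 RNA (9 called), DESeq2 called 1, the fit with no replicate block 0 and every fit without 1 library 0. For RAD21 PRO-seq (4 called), DESeq2 called 1, the fit with no replicate block 0 and every fit without 1 library 0. There the block is the clone. The day 10 against day 7 difference (4 called) gave 1 to 4 with 1 library left out, and the window difference gave 0 throughout. Signs turned in 4 cases when 1 library was left out: RAD21 RNA of *Hspa8* ranged from -0.04 to 0.37 and of *Dnajc6* from -1.17 to 0.60, and PRO-seq of *Hspb8* ranged from -0.02 to 0.99 and of *Fkbp4* from -0.86 to 0.13 on the log2 scale. Depth limits the lowest genes for days 4 to 7, where *Hspb2* held 17 counts in 1 library and *Hspb3* at most 1 count in any. An alternative chosen after seeing the data, the newer quasi-likelihood method of edgeR, left the count within 1.5 times of the reported one in each of the 4 comparisons of dTAG-13 with DMSO.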
